A study of Macaca mulatta with 11 samples.

Results

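The collagen chains were taken as every probe set whose gene symbol had the form COL, a type number, A and a chain number. This gave 73 of 22215 probe sets, for 32 of 11963 genes, and 0 of the 73 carried a further symbol. They were grouped into fibrillar collagens of types I, II, III, V and XI (23 probe sets, 9 genes), type VI (11 probe sets, 3 genes) and network-forming collagens of types IV, VIII and X (22 probe sets, 9 genes). The remaining classes were the fibril-associated collagens, called FACIT, of types IX, XIV, XVI, XIX and XXI (9 probe sets, 7 genes) and the others of types VII, XIII, XV and XVIII (8 probe sets, 4 genes). Type XII, a further FACIT collagen, was not analysed here.

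RNA of 11 cultures of mesenchymal stem cells from rhesus monkey (Macaca mulatta) bone marrow, harvested at passage 2, was hybridised to 11 arrays. These cells are the adherent stromal cells of marrow, from which bone, fat and cartilage cells can be grown. The question was how expression differs with the age of the donor. The probe sets carry human gene annotation, so the level of a probe set also depends on how well its probes match the monkey transcript, and levels were not compared between probe sets except to tell dim from bright ones.

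The fetal group had 4 arrays, of which arrays 1 and 2 were from gestation day 120. The other 2, arrays 3 and 4, carried a fetal title although the cells were from newborns. The infant group had 4 arrays, from monkeys aged 6, 6, 3 and 5 months, and the adult group had 3 arrays, from monkeys aged 7, 7 and 8 years, each in the order of the array numbers. Marrow was flushed out of long bones for the fetal group and aspirated for the infant and adult groups, so that the fetal group and the way of collection cannot be told apart. No genotype, treatment or strain beyond the species is given in the sources used here. The labels do not say that cultures of a group came from different animals, so p-values measure the spread between these cultures.

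Collagens are secreted proteins whose chains wind around each other into a triple helix. Fibrillar collagens assemble into the banded fibrils that give bone, skin and tendon their tensile strength, and FACIT collagens sit on the surface of those fibrils. Type IV forms the sheet of basement membranes, and type VI forms beaded microfilaments around cells, built from chains encoded by COL6A1, COL6A2 and COL6A3. Type I collagen, made of COL1A1 and COL1A2 chains, is the main protein of bone matrix and is made in quantity by marrow stromal cells in culture.

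The median of all log2 values was 7.38, and a probe set with a mean below it is called dim here. Of the 7 stromal markers 1 was dim. The 6 leukocyte markers, 2 of them dim, averaged between 7.34 and 7.64 on each array, near that median. VIM, the intermediate filament protein of mesenchymal cells, read between 13.46 and 14.01 on the log2 intensity scale, and PTPRC, the common leukocyte antigen, between 7.14 and 7.93. In bulk cultures, fewer cells of a kind and less RNA per cell cannot be told apart. Without the collagens, the first principal component held 23.0% of the variance and set infant arrays 1 and 2 (-19.4 and -15.9) and adult arrays 1 and 2 (-18.7 and -20.5) apart from the other 7 arrays (6.80 to 19.2). Adult array 3 also stood alone in sex-linked RNA, with XIST at 11.23 against 7.27 to 8.40 on the other 10 arrays and RPS4Y1 at 7.81 against 11.3 to 12.2. Some of the collagen values that rest on these arrays are given below with and without them, and the others only with them.

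Among the 73 collagen probe sets, 30 were dim, and 10 of the 32 genes were dim on all of their probe sets. Bright collagens were few. The 18 probe sets with a mean above 10 belonged to 11 genes, COL1A1, COL1A2, COL3A1, COL5A1, COL5A2, COL11A1, COL6A1, COL6A3, COL4A1, COL4A2 and COL16A1. Dim probe sets made up 15 of 22 in the network class and 6 of 9 in the FACIT class, against 4 of 23 in the fibrillar class. A dim probe set leaves little room for a lower level to show.

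Between adult and fetal arrays, 1 collagen probe set passed the test over all probe sets (limma, Benjamini-Hochberg adjusted p under 0.05), COL6A1 212091_s_at, which fell. Of all probe sets 29 passed, which is 0.131% of those tested, and 0.063% passed as lower in adults. The second chain of type VI collagen, COL6A2, lay lower by a similar amount and just missed the threshold, whereas COL6A3, the third chain, differed by -0.12. No collagen passed between adult and infant arrays or between infant and fetal arrays. In both, most fibrillar probe sets read lower in infant arrays, by differences that did not pass and that shrank without the arrays that stood apart.

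COL6A1 encodes the alpha-1 chain of type VI collagen. On its brightest probe set, 212091_s_at, it read 10.68, 10.38, 10.47 and 10.57 in fetal, 9.89, 9.83, 9.61 and 10.54 in infant and 9.32, 9.27 and 9.69 in adult arrays. The highest adult array, at 9.69, was below the lowest fetal array, at 10.38, and infant array 4 was the only infant array within the fetal range. The adult mean of 9.43 ± 0.23 (SD, n = 3) was 2.13-fold lower than the fetal mean of 10.52 ± 0.13 (SD, n = 4), a log2 difference of -1.09 with a standard error of 0.18 (limma adjusted p = 0.0381). The infant mean was 9.97 ± 0.40 (SD, n = 4). It differed from the fetal mean by -0.55 (limma adjusted p = 0.546), and the adult mean differed from it by -0.54 (limma adjusted p = 0.641), and neither of these passed.

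That call depended on which arrays were used. Leaving out 1 array at a time gave log2 differences between -1.22 and -1.01. The adjusted p was above 0.05 without fetal array 1, 2 or 3 or adult array 1 or 2, and reached 0.175 without adult array 2. Without adult arrays 1 and 2, which stood apart on the first component, the remaining adult array gave -0.83 (limma adjusted p = 0.278, with the lone adult array assumed to vary like the other groups). The fetal values at gestation day 120 and in newborns overlapped, and with only the gestation day 120 arrays as fetal the difference was -1.10 (limma adjusted p = 0.134).

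COL6A2, the alpha-2 chain of the same collagen, read 10.73, 10.39, 10.16 and 10.63 in fetal, 9.12, 9.72, 9.41 and 10.35 in infant and 8.99, 9.20 and 9.48 in adult arrays on probe set 209156_s_at. Its order of arrays was close to that of COL6A1, with the 3 adult arrays below every fetal array and infant array 4 again as high as the fetal arrays. The adult mean of 9.22 ± 0.24 (SD, n = 3) and the fetal mean of 10.48 ± 0.26 (SD, n = 4) were 2.39-fold apart, a log2 difference of -1.26 with a standard error of 0.23 that did not pass (limma adjusted p = 0.0571). The infant mean was 9.65 ± 0.53 (SD, n = 4), lower than the fetal mean by a difference of -0.83 (limma adjusted p = 0.497). Without adult arrays 1 and 2, the remaining adult array differed from the fetal mean by -0.999.

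COL6A3, the alpha-3 chain, is much longer than the other 2 chains. Its probe set 201438_at read 12.66, 13.00, 12.37 and 13.15 in fetal, 12.62, 12.82, 13.03 and 13.08 in infant and 12.65, 12.76 and 12.62 in adult arrays. The adult values all lay inside the fetal range, and the difference was -0.12 with a standard error of 0.17 (limma adjusted p = 0.890). The log2 intensity of COL6A3 minus that of COL6A1 within an array, of which only the change between groups can be read, averaged 3.24 ± 0.29 in adult (SD, n = 3) and 2.27 ± 0.38 in fetal arrays (SD, n = 4), without overlap. For COL6A3 minus COL6A2 the means were 3.45 ± 0.27 in adult and 2.32 ± 0.31 in fetal arrays, also without overlap. Each of these differences had an exact permutation p of 0.0286, two-sided, the smallest that 3 against 4 arrays allow, and an adjusted p of 0.157 over 33 such tests, so neither passed. Many tests at that smallest p would be needed for any to pass. Both also hold the COL6A1 and COL6A2 differences given above and add no separate support. COL1A2 minus COL1A1 had the same exact permutation p between adult and fetal arrays, without overlap, with a difference of 0.29. Between infant and fetal arrays so did COL6A3 minus COL6A2 (0.92), COL5A2 minus COL5A1 (0.42) and COL4A6 minus COL4A5 (-0.29). COL6A2 minus COL6A1 differed by -0.16 between adult and fetal arrays, with overlap (exact permutation p = 0.229).

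Probe sets of the type VI genes did not all show the difference. COL6A1 had 8 probe sets, of which 2 were dim. The second brightest, 213428_s_at, read 8.99, 8.98, 8.96 and 9.58 in fetal, 8.37, 8.48, 9.09 and 9.25 in infant and 8.01, 8.35 and 8.97 in adult arrays. Its adult arrays 1 and 2 were low while adult array 3 reached the fetal range, for a difference of -0.69 with a standard error of 0.25 (limma adjusted p = 0.405). The other 6 COL6A1 probe sets differed by -0.18 to 0.055 and averaged between 6.83 and 8.39, below the 10.02 of the called probe set. The second COL6A2 probe set, 213290_at, read 8.67, 8.72 and 9.09 in adult and 8.91, 8.91, 8.96 and 8.92 in fetal arrays, a difference of -0.10. Across the 11 probe sets of the class, 9 were lower and 2 higher in adult than in fetal arrays, with a median of -0.10. Leaving out 1 array at a time gave 7 to 10 lower, with medians from -0.14 without adult array 1 to -0.055 without fetal array 2. Leaving out adult and infant arrays 1 and 2 gave 7 lower, with a median of -0.16. Over all probe sets 11657 were higher (52.5%) and 10558 lower, with a median of 0.0085. Probe sets that were not dim leaned the other way, with 4833 higher and 6150 lower and a median of -0.027. Of the 9 type VI probe sets that were not dim 1 was higher and 8 were lower, with a median of -0.12. The plot of the type VI probe sets sets each difference beside its standard error and mean level.

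**Figure D1:**
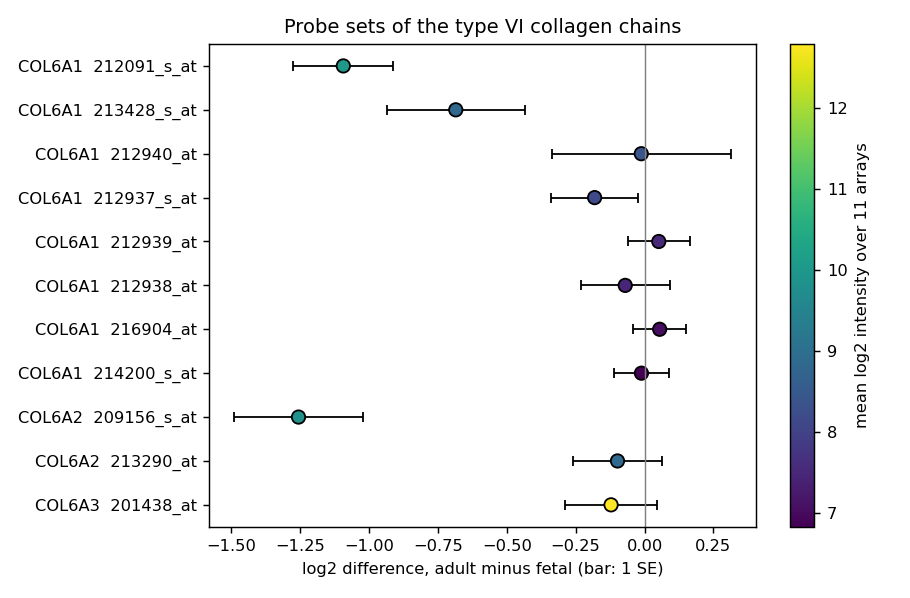
Log2 difference in intensity, adult minus fetal, for the 11 probe sets of COL6A1, COL6A2 and COL6A3, with bars of 1 standard error from limma and colour for the mean log2 intensity over the 11 arrays. The bright probe sets 212091_s_at (-1.09) and 209156_s_at (-1.26) lie far to the left, and COL6A3 lies at -0.12.

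At an unadjusted p under 0.05, 9 of the 73 collagen probe sets differed between adult and fetal arrays, which is 12.3%, against 8.96% of all probe sets. Of these 4 were higher and 5 lower in adults, against 4.12% higher and 4.83% lower among all probe sets. Among the probe sets that were not dim the counts were 8 of 43 collagens (18.6%), against 13% of all such probe sets. The groups did not overlap for 7 collagen probe sets, 3 higher and 4 lower, against 8.08% of all probe sets, 4.41% higher and 3.66% lower. The 7 were COL5A2 221730_at, COL15A1 203477_at and COL14A1 212865_s_at, higher in adults, and COL6A1 212091_s_at, COL6A2 209156_s_at, COL16A1 204345_at and COL7A1 204136_at, lower in adults. These shares lie near or somewhat above the background, so the count of collagens is itself no result about the family.

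**Figure D2:**
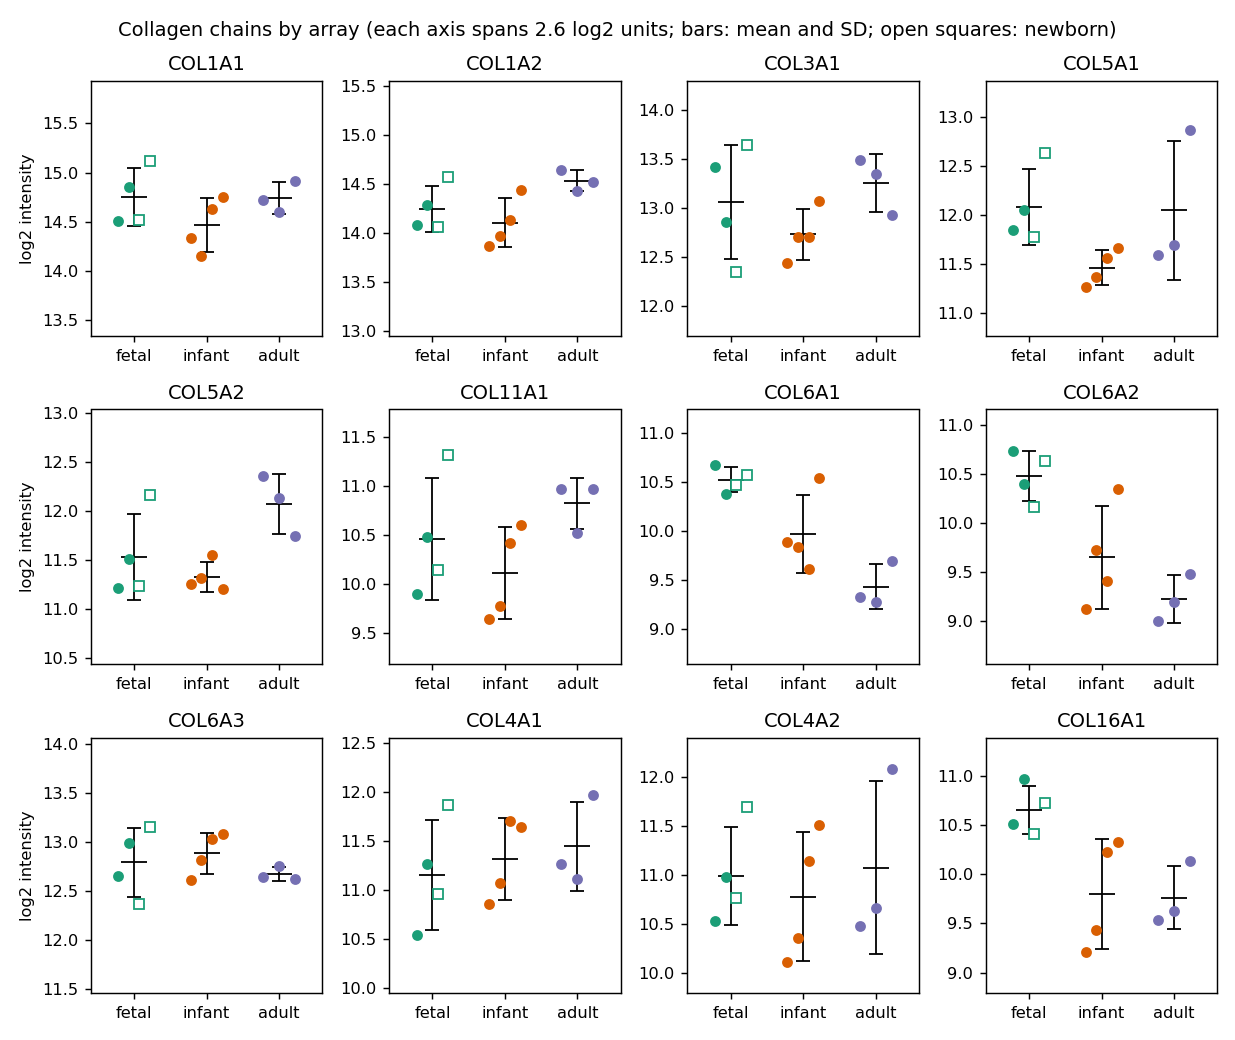
Log2 intensity of 12 collagen chains on each array, with 1 point per array (open squares are the newborn arrays of the fetal group) and horizontal and vertical bars for group mean and SD. Every panel spans 2.6 log2 units, and the fetal and adult points are apart in COL6A1, COL6A2 and COL16A1 and overlap in the other 9 panels.

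The 2 chains of type I collagen were bright in all 3 groups. COL1A1, the alpha-1 chain, read 14.51, 14.85, 14.51 and 15.12 in fetal, 14.33, 14.15, 14.63 and 14.75 in infant and 14.72, 14.59 and 14.92 in adult arrays on 202310_s_at. The adult and fetal means were 14.74 ± 0.16 (SD, n = 3) and 14.75 ± 0.29 (SD, n = 4), and the infant mean was 14.46 ± 0.27 (SD, n = 4). The 3 groups overlapped, and infant arrays 1 and 2 were the lowest of all 11. COL1A2, the alpha-2 chain, read 14.08, 14.29, 14.07 and 14.57 in fetal, 13.87, 13.97, 14.14 and 14.44 in infant and 14.65, 14.44 and 14.52 in adult arrays on 202403_s_at. Its adult arrays sat at the top of the range, with a difference of 0.28 to the fetal mean and of 0.43 to the infant mean (limma adjusted p = 0.626 and 0.675).

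The other probe sets of type I did not all read the same way. Between adult and fetal arrays, 2 of the 4 COL1A1 probe sets were higher and 2 lower in adults, and the 2 COL1A2 probe sets were higher. COL1A1 202311_s_at read 11.55, 11.27 and 11.44 in adult and 9.43, 10.89, 10.84 and 10.86 in infant arrays, a difference of 0.92 with a standard error of 0.34 (limma adjusted p = 0.698). Infant array 1 was the lowest there by more than 1 log2 unit, and the adult and infant arrays did not overlap. COL1A1 217430_x_at, whose suffix marks probes that can match other sequences, ranged from 12.15 to 13.15 in adult and from 11.67 to 13.06 in infant arrays. COL1A2 202404_s_at read 11.81, 11.55 and 11.41 in adult and 10.98, 11.10, 11.12 and 11.27 in infant arrays, without overlap, a difference of 0.47 that did not pass (limma adjusted p = 0.679).

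COL3A1, the type III chain, which shares fibrils with type I in skin and vessels, read 13.42, 12.86, 12.35 and 13.65 in fetal, 12.45, 12.71, 12.71 and 13.08 in infant and 13.49, 13.35 and 12.93 in adult arrays on 215076_s_at. The spread among fetal arrays, 0.58 (SD, n = 4), exceeded the adult minus fetal difference of 0.19. Adult minus infant was 0.52, with adult array 3 inside the infant range. The other bright COL3A1 probe sets, 201852_x_at and 211161_s_at, differed between adult and fetal arrays by 0.20 and 0.18.

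Type V collagen is a minor fibrillar collagen that is built into type I fibrils and is needed to start them. Its COL5A1 chain read 11.85, 12.05, 11.78 and 12.63 in fetal, 11.26, 11.37, 11.56 and 11.66 in infant and 11.59, 11.69 and 12.86 in adult arrays on 212488_at. All 4 infant arrays lay below all 4 fetal arrays, a difference of -0.61 (limma adjusted p = 0.666), and adult array 3 stood more than 1 log2 unit above the other adult arrays. COL5A1 203325_s_at showed a similar pattern, with 8.59, 9.12, 8.66 and 9.21 in fetal, 8.27, 8.28, 8.38 and 8.54 in infant and 8.67, 8.75 and 9.10 in adult arrays. Its infant arrays were below both other groups without overlap, by a log2 difference of -0.53 with a standard error of 0.15 from the fetal mean (limma adjusted p = 0.497). Neither passed.

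COL5A2, the partner chain of type V, differed from COL5A1 in its pattern. On 221730_at it read 10.69, 11.42, 11.16 and 11.70 in fetal, 11.04, 11.39, 11.20 and 11.14 in infant and 12.33, 12.05 and 11.83 in adult arrays. Every adult array was above every fetal and infant array. The adult minus fetal difference was 0.83 with a standard error of 0.19, a 1.78-fold higher level (limma adjusted p = 0.133), and the adult minus infant difference was 0.88 with the same standard error (limma adjusted p = 0.293). On the other probe set, 221729_at, the readings were 11.21, 11.51, 11.24 and 12.16 in fetal, 11.26, 11.31, 11.55 and 11.20 in infant and 12.35, 12.13 and 11.74 in adult arrays. Here newborn array 4 of the fetal group reached the adult range, and the differences were 0.55 to the fetal mean (limma adjusted p = 0.421) and 0.74 to the infant mean (limma adjusted p = 0.481). Without fetal array 4, 221730_at passed between adult and fetal arrays, with a difference of 0.98 (limma adjusted p = 0.0313). Without adult and infant arrays 1 and 2, which leaves 1 adult array, the adult minus fetal difference of 221730_at was 0.59. The adult minus infant difference of 221729_at was then 0.37.

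COL11A1, a chain of the minor fibrillar collagen XI of cartilage and of other tissues, read 9.89, 10.48, 10.15 and 11.32 in fetal, 9.64, 9.78, 10.42 and 10.60 in infant and 10.97, 10.52 and 10.97 in adult arrays on 37892_at. The fetal range, which newborn array 4 widened, held all adult values, and adult minus infant was 0.71 (limma adjusted p = 0.767). COL11A2, its partner in cartilage fibrils, read 8.10, 8.21, 8.15 and 7.96 in fetal, 8.36, 7.87, 8.30 and 8.07 in infant and 7.99, 7.93 and 8.15 in adult arrays on 216993_s_at. The groups overlapped, with all 11 arrays within 0.49. COL2A1, the main cartilage collagen, was dim on both of its probe sets, with means of 7.16 and 7.09. Beside these, ACAN, the cartilage proteoglycan aggrecan, was bright and uneven, at 8.96, 8.52 and 12.51 in adult and 9.88, 10.98, 10.92 and 12.59 in fetal arrays. The 5 cartilage markers averaged between 7.53 and 8.95 on adult and between 7.92 and 8.47 on fetal arrays, and their part in the type XI values was not tested.

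Across the fibrillar class, 20 of 23 probe sets were higher and 3 lower in adult than in infant arrays, with a median difference of 0.30. Over all probe sets the median was 0.013, and 53.9% were higher. Without adult and infant arrays 1 and 2, which leaves 1 adult array, 16 were higher and 7 lower, with a median of 0.099. Leaving out 1 array at a time gave 18 to 21 higher and medians from 0.25 to 0.42. The direction was not particular to the fibrillar class. In the network class 17 of 22 probe sets were higher in adult than in infant arrays, with a median of 0.053. Of its 7 that were not dim 6 were higher, with a median of 0.19. With 1 probe set per gene, 9 of 9 network and 7 of 9 fibrillar genes were higher. Of the type VI probe sets 4 of 11 were higher, with a median of -0.17, of FACIT 5 of 9 and of the others 3 of 8. In the same comparison 0 collagens passed (limma), against 4 of all probe sets, or 0.018%. With the replicate number of the titles as a block, 9 probe sets passed and again 0 collagens. At an unadjusted p under 0.05 there were 11 collagens (15.1%), against 6.19% of all probe sets. Among those not dim the counts were 9 of 43 (20.9%), against 8.06% of all such probe sets. Of the 11, 10 were higher in adults, against 3.79% of all probe sets, and 8 of those 10 were fibrillar, namely COL1A1 202311_s_at, both COL1A2 probe sets, COL5A1 212488_at and 203325_s_at, both COL5A2 probe sets and COL11A1 37892_at. The other 2 were the dim COL4A6 213992_at and COL8A1 214587_at, and the 1 that was lower, against 2.39% of all probe sets, was COL6A1 212091_s_at. The 8 probe sets cover 5 genes, so they do not count as separate observations. Groups did not overlap for 6 collagen probe sets, against 4.98% of all probe sets.

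Between infant and fetal arrays, 19 of 23 fibrillar probe sets were lower and 4 higher in infants, with a median of -0.18, against -0.0052 over all probe sets, of which 48.4% were higher. Newborn array 4 of the fetal group weighed on this, since without it 15 were lower and 8 higher, with a median of -0.025. Without newborn array 3 the median was -0.29. Without adult and infant arrays 1 and 2 the counts were 17 lower and 6 higher, with a median of -0.071. On all arrays, probe sets that were not dim also leaned lower in infants, with 6601 lower and 4382 higher and a median of -0.038. Of the 19 fibrillar probe sets that were not dim 16 were lower and 3 higher, with a median of -0.20. No collagen and no other probe set passed (limma, 0% of 22215). At an unadjusted p under 0.05 there were 7 collagen probe sets, against 6.87% of all, and the 7 were lower in infants, against 4.55% of all probe sets. The same 7 are 16.3% of the 43 collagens that were not dim, against 10.4% of all such probe sets. They were all 3 COL5A1 probe sets, COL6A1 212091_s_at, COL6A2 209156_s_at, COL16A1 204345_at and COL7A1 204136_at. Groups did not overlap for 5 of the 73, against 3.34% of all probe sets. Both comparisons share the infant arrays, so that low infant arrays enter each of them. Between adult and fetal arrays 15 of 23 fibrillar probe sets were higher and 8 lower in adults, with a median of 0.10. Without newborn array 3 of the fetal group 10 were higher and 13 lower, with a median of -0.022. Of the type VI probe sets 6 of 11 were lower in infant than in fetal arrays, with a median of -0.015. The F test over the 3 groups called 0 collagens and 8 probe sets in all (0.036%), with 12 of 73 collagens and 8.01% of all probe sets at an unadjusted p under 0.05.

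**Figure D3:**
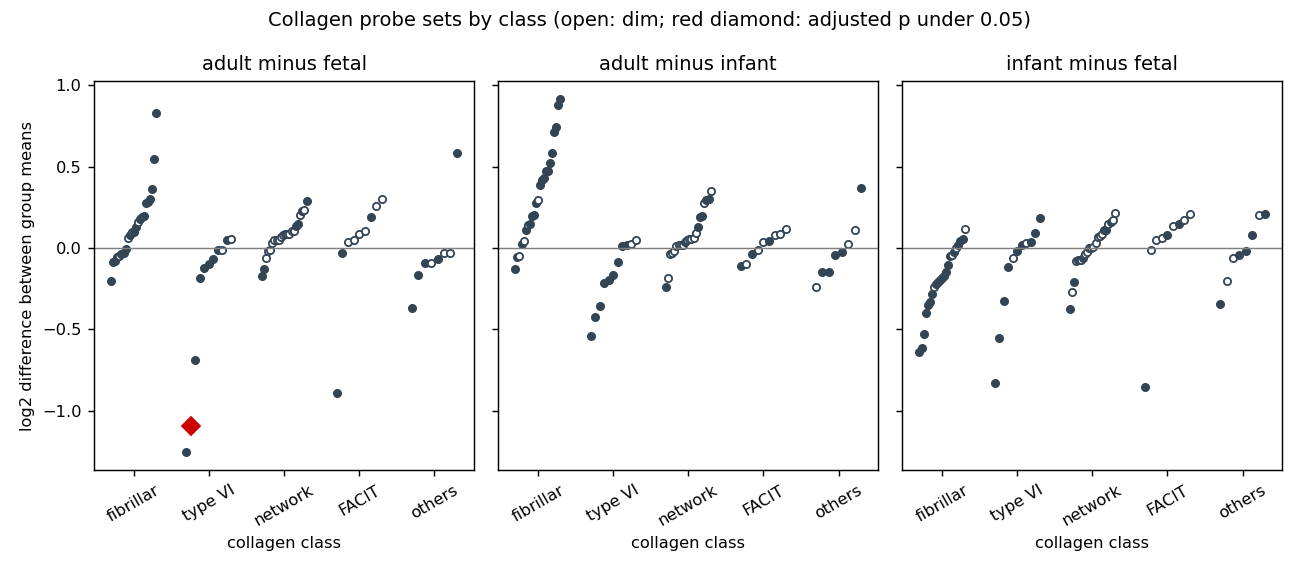
Log2 differences between group means for all 73 collagen probe sets by class, with open circles for dim probe sets and a red diamond for an adjusted p under 0.05. Fibrillar points lie mostly above 0 in adult minus infant (20 of 23) and mostly below 0 in infant minus fetal (19 of 23), and the diamond is COL6A1 212091_s_at at -1.09.

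The class level of an array was taken as the mean over genes of the deviation from each gene's own mean, with the brightest probe set of each gene. The fibrillar level lay between -0.23 and 0.40 on fetal, between -0.31 and -0.01 on infant and between 0.10 and 0.26 on adult arrays. Adult arrays were thus above every infant array, and the fetal arrays, with newborn array 4 the highest and newborn array 3 the lowest, spanned most of the range. The type VI level lay between 0.12 and 0.57 on fetal, between -0.34 and 0.44 on infant and between -0.56 and -0.29 on adult arrays. There the adult arrays were below every fetal array. That gap came from COL6A1 (-1.09) and COL6A2 (-1.26) on their brightest probe sets, with COL6A3 at -0.12. Over all 11 type VI probe sets the median was -0.10. No test was made on these levels, which describe the chains given above. The network, FACIT and other classes overlapped between all 3 groups.

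**Figure D4:**
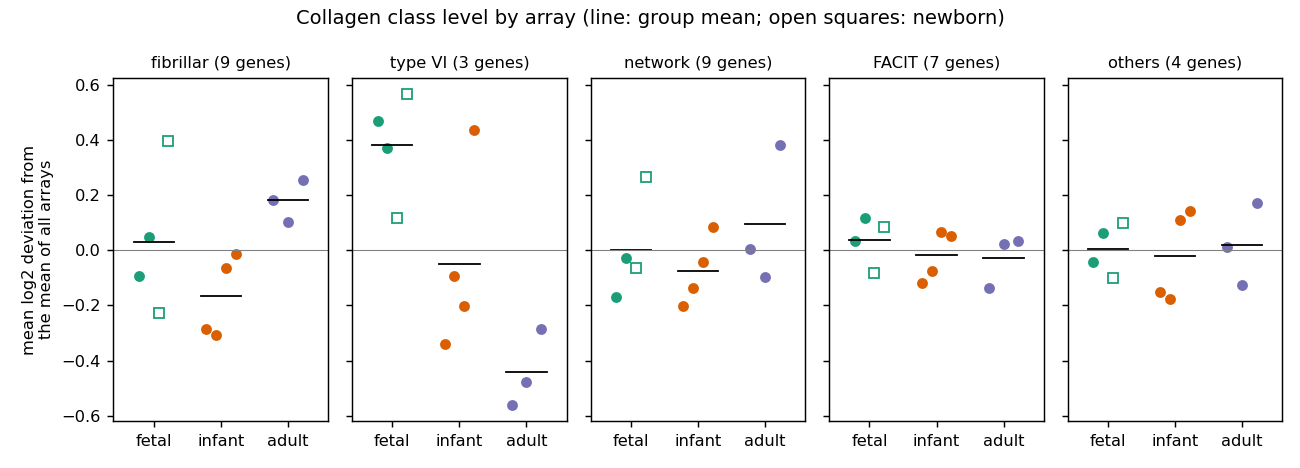
Mean log2 deviation of each collagen class on each array from its mean over all 11 arrays, with 1 probe set per gene, 1 point per array (open squares are the newborn arrays) and lines for group means. Type VI runs high in fetal arrays (0.12 to 0.57) and low in adult arrays (-0.56 to -0.29), while the network, FACIT and other classes overlap between groups. The type VI level averages 3 genes, with adult minus fetal differences of -1.09 (COL6A1), -1.26 (COL6A2) and -0.12 (COL6A3).

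The network-forming class held 2 bright genes, the paired basement membrane chains COL4A1 and COL4A2. COL4A1 read 10.54, 11.27, 10.96 and 11.87 in fetal, 10.86, 11.07, 11.70 and 11.64 in infant and 11.27, 11.11 and 11.97 in adult arrays on 211980_at. COL4A2 read 10.52, 10.97, 10.77 and 11.69 in fetal, 10.11, 10.36, 11.14 and 11.50 in infant and 10.47, 10.66 and 12.08 in adult arrays on 211964_at. Both were highest on adult array 3 and next highest on newborn array 4 of the fetal group, and the age groups overlapped. Adult minus fetal was 0.29 for COL4A1 and 0.085 for COL4A2, each below the SD among the 3 adult arrays, 0.46 and 0.88. On the second probe set of each gene the differences were 0.15 and -0.13.

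The other type IV chains are restricted to specialised basement membranes such as those of the kidney, and they were dim on every probe set. The 7 probe sets of COL4A3 averaged between 6.76 and 7.08, and COL4A4 averaged 6.94. COL4A5 read 6.79, 6.83, 6.74 and 6.97 in fetal, 7.19, 7.14, 6.82 and 7.04 in infant and 6.99, 7.23 and 6.97 in adult arrays, and COL4A6 213992_at read 7.34, 7.20, 7.25 and 7.27 in fetal, 7.27, 7.16, 7.04 and 7.31 in infant and 7.43, 7.71 and 7.27 in adult arrays. The spans of COL4A5 and COL4A6 213992_at over all 11 arrays were 0.49 and 0.67, and neither passed in any comparison.

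Type VIII collagen forms hexagonal sheets under endothelia and in the cornea. COL8A2, its alpha-2 chain, read 7.41, 7.75, 7.86 and 8.30 in fetal, 7.39, 7.27, 7.65 and 7.52 in infant and 7.57, 6.78 and 8.61 in adult arrays on 221900_at. Adult array 3 and newborn array 4 were again the highest and adult array 2 was the lowest. COL8A1 was dim, at 6.88, 7.19, 7.02 and 7.47 in fetal, 6.70, 7.00, 6.76 and 7.02 in infant and 7.50, 7.02 and 7.14 in adult arrays on 214587_at. COL10A1, the collagen of hypertrophic cartilage, averaged 7.54 on 205941_s_at, where adult array 3 read 7.89 and the others 7.26 to 7.54.

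In the FACIT class only COL16A1, a collagen found with fibrils in cartilage and skin, had a mean above 10. It read 10.52, 10.97, 10.41 and 10.72 in fetal, 9.21, 9.44, 10.23 and 10.33 in infant and 9.53, 9.62 and 10.14 in adult arrays on 204345_at, its only probe set. Every infant and every adult array lay below every fetal array. The adult mean of 9.76 ± 0.33 (SD, n = 3) was lower than the fetal mean of 10.66 ± 0.25 (SD, n = 4) by a log2 difference of -0.89 with a standard error of 0.25 (limma adjusted p = 0.243). The infant mean of 9.80 ± 0.56 (SD, n = 4) differed from the fetal mean by -0.86 with a standard error of 0.23 (limma adjusted p = 0.497). The 4 lowest arrays, infant 1 and 2 and adult 1 and 2, were the 4 that stood apart on the first component. Without them the differences were -0.52 for adult and -0.38 for infant against fetal arrays (limma adjusted p = 0.322 and 0.628), with the remaining adult array alone.

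Type IX collagen, a cartilage FACIT, was near or below the dim limit. COL9A1 read 7.75, 7.70, 7.43 and 7.60 in fetal, 7.63, 7.74, 7.70 and 7.73 in infant and 7.46, 7.70 and 7.60 in adult arrays. COL9A2 read 7.22, 7.42, 7.15 and 7.42 in fetal, 7.53, 7.42, 7.43 and 7.43 in infant and 7.30, 7.71 and 7.48 in adult arrays. COL9A3 was dim, at 6.96, 6.86, 6.81 and 6.92 in fetal, 7.00, 6.60, 6.91 and 6.98 in infant and 7.03, 7.03 and 6.91 in adult arrays. The groups overlapped for each of these chains, and their largest span over all arrays was 0.55. COL14A1, COL19A1 and COL21A1, further FACIT chains, were dim on all of their probe sets.

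Among the other collagens, COL15A1 belongs to the basement membrane zone and carries an endostatin-like fragment. It read 7.53, 7.72, 7.66 and 7.94 in fetal, 7.45, 7.55, 8.55 and 8.15 in infant and 8.39, 8.12 and 8.37 in adult arrays on 203477_at. All adult arrays were above all fetal arrays, while the infant arrays fell into a low pair, 1 and 2, and a high pair, 3 and 4. Adult minus fetal was 0.58 with a standard error of 0.21 (limma adjusted p = 0.412). COL7A1, the anchoring fibril collagen of skin, read 7.86, 7.71, 7.71 and 7.62 in fetal, 7.13, 7.44, 7.38 and 7.57 in infant and 7.08, 7.44 and 7.56 in adult arrays on 204136_at. Its fetal arrays were above every infant and adult array, though close to the median of all values, with an adult minus fetal difference of -0.37 (limma adjusted p = 0.401). COL13A1, a transmembrane collagen, read 7.96, 8.03, 7.89 and 8.11 in fetal, 7.87, 7.98, 7.98 and 7.98 in infant and 8.05, 7.76 and 7.90 in adult arrays on 208535_x_at, with all groups overlapping. COL18A1, the source of endostatin, averaged 7.44 and 7.26 on its probe sets and differed between adult and fetal arrays by no more than 0.066.

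Chains that can share a molecule, a fibril or a promoter were compared over the 11 arrays, in 11 pairs. COL6A1 and COL6A2 followed each other most closely, with Pearson r = 0.937 and Spearman rho = 0.864 (permutation test, adjusted p = 0.00214 and 0.0108). Of all other probe sets on the arrays, 0 had a higher r with COL6A1 and 1 had a higher r with COL6A2. The 4 fetal arrays and infant array 4 were high in both chains and the other 6 low, so this r also holds the difference between the groups. Within the groups, with each value taken as its deviation from the group mean, r was 0.807 (permutation test, adjusted p = 0.0124). Here and below these deviations were permuted over all 11 arrays without regard to group, so their p-values are only approximate. Among the 7 arrays that lie together on the first component r was 0.968, the other 4 arrays being too few to give a correlation. Without the 2 arrays farthest from the median r was 0.907.

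COL4A1 and COL4A2 lie next to each other in the macaque genome (RefSeq genes of assembly T2T-MMU8v2.0) and share a promoter region in human and mouse. Their r was 0.872 and rho 0.809 (permutation test, adjusted p = 0.00214 and 0.0145). A higher r was held by 18 probe sets with COL4A1 and by 47 with COL4A2. Within the groups, deviations from the means gave r = 0.919 (permutation test, adjusted p = 0.00176). The 7 arrays gave 0.922, and r was 0.894 without the 2 farthest arrays. COL1A1 and COL1A2, which lie on different chromosomes in human, had r = 0.808 and rho = 0.836 (permutation test, adjusted p = 0.00759 and 0.0108). For this pair 51 probe sets had a higher r with COL1A1 and 52 with COL1A2. The r of the pair was 0.868 for deviations from group means, 0.920 for the 7 arrays and 0.774 without the 2 farthest arrays.

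The other 8 pairs did not pass. COL6A3 followed neither of its partners, with r = 0.199 to COL6A1 (permutation test, adjusted p = 0.551) and 0.337 to COL6A2 (permutation test, adjusted p = 0.426). COL1A1 and COL3A1 gave 0.539 (permutation test, adjusted p = 0.242), and COL5A1 and COL5A2 gave 0.350 (permutation test, adjusted p = 0.426). The pairs with a dim chain, COL8A1 with COL8A2, COL9A2 with COL9A3 and COL4A5 with COL4A6, had r between 0.259 and 0.482, and COL11A1 with COL11A2 had r = -0.300. COL3A1 and COL5A2, which are neighbours in the macaque genome, were not among the pairs. COL6A1 and COL6A2 are neighbours too. All of these correlations are over 11 arrays in 3 age groups, and arrays share the normalisation.

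**Figure D5:**
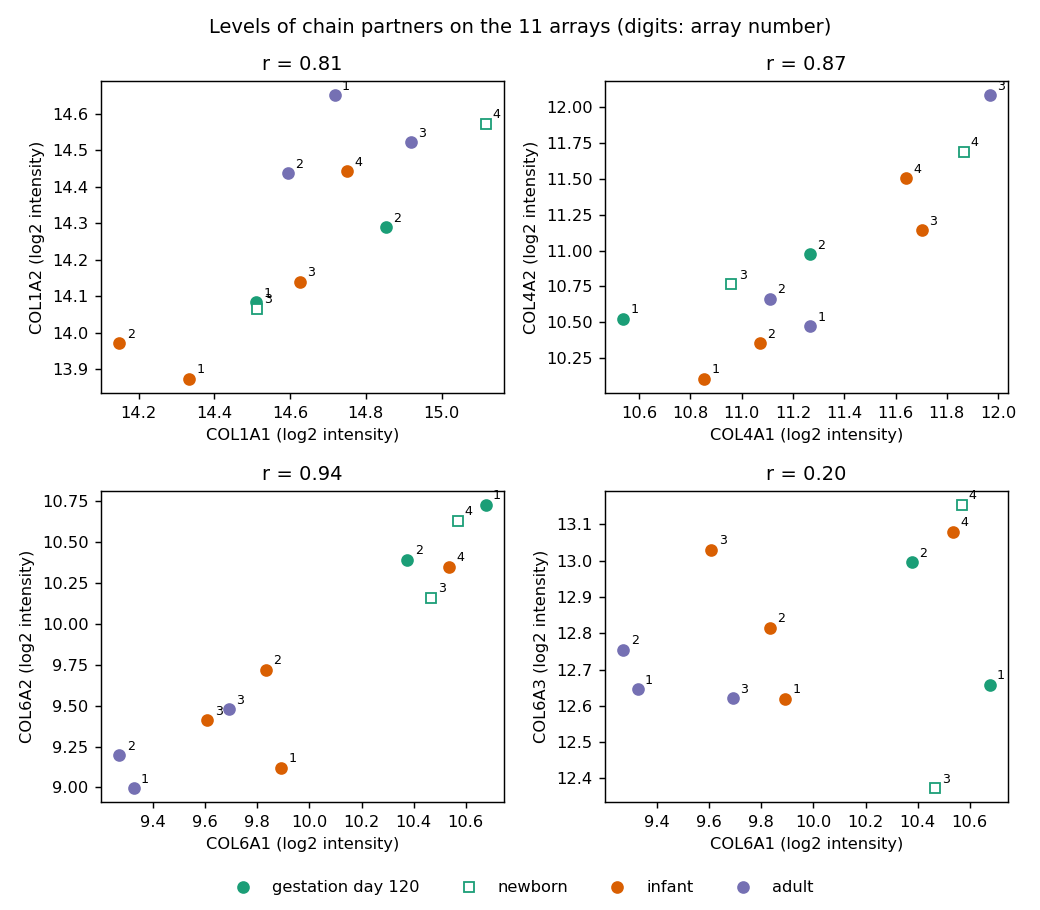
Log2 intensity of collagen chain partners, 1 point per array with its array number, coloured by group with open squares for newborns. COL1A1 with COL1A2 (r = 0.81), COL4A1 with COL4A2 (r = 0.87) and COL6A1 with COL6A2 (r = 0.94) line up, whereas COL6A1 with COL6A3 (r = 0.20) does not.

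Newborn and gestation day 120 arrays, 2 of each within the fetal group, were compared by themselves. No collagen and no other probe set passed (limma, 0% of 22215), and at an unadjusted p under 0.05 there were 0 of 73 collagens, against 1.81% of all probe sets. Groups of 2 did not overlap for 15 of the 73 collagens, against 28.8% of all probe sets. COL6A1 212091_s_at read 10.47 and 10.57 in newborn and 10.68 and 10.38 at gestation day 120, and COL6A2 209156_s_at read 10.16 and 10.63 in newborn and 10.73 and 10.39 at gestation day 120. The type VI chains thus overlapped between these stages. All 7 network probe sets that were not dim, which cover 4 genes, were higher in newborns, with a median of 0.50, but none passed. Of all probe sets that were not dim 5037 of 10983 were higher, with a median of -0.017. The class level of these 4 genes was -0.07 on newborn array 3 and 0.49 on newborn array 4, against -0.35 and 0.02 at gestation day 120. COL4A1 211980_at read 10.96 and 11.87 in newborn and 10.54 and 11.27 at gestation day 120, so that newborn array 4 was the highest while newborn array 3 lay between the gestation day 120 arrays.

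Proteins that process, cross-link, bind or degrade collagen were listed as 42 genes, of which 36 were measured and 8 of those were dim. None passed in any of the comparisons (limma). At an unadjusted p under 0.05 there were 4 higher and 5 lower in adult than in fetal arrays, against 4.12% higher and 4.83% lower of all probe sets, and 6 higher and 3 lower in adult than in infant arrays, against 3.79% and 2.39%. In infant against fetal arrays 3 were lower, against 4.55% of all probe sets, and 0 higher, and in newborn against gestation day 120 arrays 1 was higher and 1 lower, against 1.81% in either direction. LOX, the lysyl oxidase that cross-links fibrils, read 9.07, 9.52, 9.69 and 9.24 in fetal, 10.64, 10.40, 9.66 and 8.97 in infant and 11.12, 10.58 and 11.58 in adult arrays. Each adult array was above each fetal array, and the difference was 1.71 with a standard error of 0.33 (limma adjusted p = 0.0646). PLOD2, a lysyl hydroxylase that prepares the cross-link sites, read 10.67, 10.35 and 10.68 in adult and 9.79, 9.98, 9.98 and 9.88 in fetal arrays, without overlap, for a difference of 0.66 (limma adjusted p = 0.102).

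MMP14, a membrane-bound collagenase, and BMP1, the C-propeptidase of fibrillar procollagens, were the other 2 of the 4 higher genes. They differed between adult and fetal arrays by 0.51 and 0.35 (limma adjusted p = 0.300 and 0.386). The 5 lower genes were SERPINH1, PCOLCE, LOXL1, DDR2 and P3H2. SERPINH1, the collagen chaperone of the endoplasmic reticulum, read 12.48, 12.82 and 12.70 in adult and 13.15, 13.12, 12.94 and 13.19 in fetal arrays, a difference of -0.43 without overlap (limma adjusted p = 0.271). PCOLCE, which speeds up BMP1, differed by -0.68, and LOXL1, an oxidase of elastic fibres, by -0.44 (limma adjusted p = 0.259 and 0.245). DDR2, a collagen receptor kinase, and P3H2, a prolyl hydroxylase, differed by -0.31 and -0.74 with overlap. Members of the list thus lay on both sides, and its median adult minus fetal difference was -0.046. The median was 0.0085 over all probe sets and -0.027 over those that were not dim.

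Cell type markers that could move with the adult values were read beside these. The 5 plasma cell markers averaged between 7.86 and 8.47 on adult and between 7.75 and 7.85 on fetal arrays. IGKC, the immunoglobulin kappa chain, stood at 9.36, 9.90 and 7.60 in adult and at 7.42 to 7.67 in fetal arrays. The 5 endothelial markers averaged 7.49 to 7.64 on adult and 7.39 to 7.47 on fetal arrays, and the 4 osteoblast markers 7.39 to 7.53 on adult and 7.32 to 7.54 on fetal arrays. No marker passed in any comparison (limma). At an unadjusted p under 0.05, 2 of the 5 plasma cell markers and 1 of the 5 endothelial markers were higher in adult than in fetal arrays, 1 of the 7 stromal markers was lower, and of the 6 leukocyte markers 1 was higher and 1 lower. The shares over all probe sets were 4.12% higher and 4.83% lower. The stromal marker was CD44, a surface receptor for hyaluronan, which read 9.07, 9.29 and 9.07 in adult and 9.82, 9.86, 9.75 and 9.34 in fetal arrays, without overlap, a difference of -0.55 (limma adjusted p = 0.132). Their part in the collagen values was not tested.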

How the data were processed

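Each of the 11 cultures was measured on 1 array. Per probe set, the authors deposited an intensity made with RMA, per the submitters' processing notes. The version and the background and normalisation settings are not given in the sources used here. Since RMA normalises between arrays, differences in total signal are removed before deposit. The values were on a linear scale (lowest 75.3, array medians 164.9 to 169.6), so log2 of the deposited values was taken here. No depth applies, and the number of arrays limits the precision.

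Symbols came from the platform annotation (19065 probe sets with 1 symbol, 1043 with several, 2107 with none). In R 4.3.3, limma 3.58.1 was used with a mean for each titled group over all arrays and all 22215 probe sets (lmFit, eBayes), two-sided, with Benjamini-Hochberg adjustment over the whole table and calls at 0.05. Newborn and gestation day 120 arrays were compared with 1 mean per stage. No filter was used. The fits were tested on simulated data. Correlations of chain pairs were tested with 100000 permutations, adjusted over the 11 pairs, and within-array level differences with exact permutation tests.

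Values in every array are given for called probe sets, the 3 genes of highest mean per class, probe sets at an unadjusted p under 0.01 and the chains of the pairs, 25 probe sets in all. The other probe sets of those genes, COL10A1 and genes outside the family were named after their values were seen. The members and lists were chosen with earlier results of these data known. The within-array differences were chosen after values were seen. Alternatives were other normalisation, moderation, filters, array weights, replicate block, group definitions and arrays left out. Same-numbered infant and adult arrays deviated together, with correlations of 0.145, 0.131 and 0.204, and passed the check for pairs, but the division of arrays on the first component runs the same way. No sequence is shown.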

Additional observations from a re-analysis of the deposited data

Results flagged for a closer look

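In 50 groups of 4 arrays tested, from the 25 probe sets given in full, 2 held an array far from the other 3. Chance flags about 1 in 20 groups, so this is no more than chance gives. The COL9A2 probe set 213622_at read 7.526 on infant array 1, while the other infant arrays read 7.42 to 7.43. The COL13A1 probe set 208535_x_at read 7.873 on infant array 1, while the other 3 infant arrays held the same deposited value, 7.98 on the log2 scale. Identical values on several arrays were common among the dim probe sets. Among collagens, 21 of 30 dim probe sets (70%) and 12 of 43 others (27.9%) held a value that recurred on another array, against 58.5% of all probe sets.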

How the results depend on the processing

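The count of collagen probe sets called between adult and fetal arrays, 1 as reported, moved under each alternative. It was 0 with quantile normalisation, with the gestation day 120 arrays as the fetal group, without adult arrays 1 and 2, and without adult and infant arrays 1 and 2 (an alternative added after seeing the data). It was 2, COL6A1 and COL6A2, with probe sets above the median only, intensity trend and robust moderation, 1 probe set per gene, array weights and a fit on the 2 groups alone, and 3 with the replicate number as a block, which added COL5A2 221730_at and gave COL6A1 -0.99 (limma adjusted p = 0.0181) and COL6A2 -1.11 (limma adjusted p = 0.0256). Same-numbered fetal and adult arrays (correlations of deviations 0.068, 0.043 and -0.096) and infant and fetal arrays (0.116, 0.0077, 0.041 and 0.275) did not pass as pairs, and 3 of 6 and 5 of 8 arrays matched their own number best. Leaving out 1 array at a time gave 0 to 2. It was 0 without fetal array 1, 2 or 3 or adult array 1 or 2. It was 2 without fetal array 4 (COL6A1 and COL5A2) or adult array 3 (COL6A1 and COL6A2). For the F test the count was 2 with array weights and 2 with the replicate block, and 0 to 2 leaving out 1 array. Adult minus infant, infant minus fetal and newborn minus gestation day 120 stayed at 0 collagens in every alternative run, the block included where it was run. The cause of these moves was not tested, except that fewer probe sets or arrays enter some fits.

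Over the whole table the count of calls between adult and fetal arrays ran from 4 to 221, the highest with the replicate block, against 29. Among single collagen probe sets, only differences at an unadjusted p under 0.01 (limma) were followed through the alternatives, and none of these changed sign. The other named differences were not followed. COL6A1 differed by -1.22 to -0.83 over all alternatives and COL6A2 by -1.38 to -0.999. The 3 chain pairs that passed did so in each alternative run. Dim probe sets limit what can be said of 30 collagens.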
